A study of Homo sapiens with 10 samples.

Results

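The hypoxia response genes described here are 10 genes of the cellular answer to low oxygen: HIF1A, EPAS1, VEGFA, CA9, ADM, BNIP3, PDK1, EGLN3, NDRG1 and ANKRD37. They were taken as a list and matched by symbol to the Ensembl identifiers of the RNA tables and to the gene names of the m6A peak lists. All 10 of the 10 symbols were found among the 58037 gene identifiers of the tables, and all 10 were among the 16406 genes with enough counts to be tested. ANKRD37 passed that filter only through its counts in A549.

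RNA was measured in A549, a human lung adenocarcinoma cell line, and in A549/DDP, its cisplatin-resistant counterpart, with 2 input libraries and 2 m6A-seq libraries for each. Both lines were grown in the same medium with serum and antibiotics, and the labels name neither a low-oxygen exposure nor cisplatin in the culture. In m6A-seq, RNA fragments are pulled down with an antibody against N6-methyladenosine, and stretches enriched over the untreated input are called as peaks. The question addressed was whether RNA levels and called m6A peaks differed between A549 and the resistant line. The paper states that A549 was purchased and that A549/DDP was a gift from another laboratory. The source of the cells and their resistance therefore cannot be told apart here. Each line is a single line, and nothing in the labels says whether the replicates were separate cultures, so the p-values measure the spread between libraries, which may be technical.

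Cells respond to low oxygen mainly through the hypoxia-inducible factors, each made of an oxygen-regulated alpha subunit (HIF-1α from HIF1A, HIF-2α from EPAS1) and the partner ARNT. With oxygen present, prolyl hydroxylases of the EGLN family mark the alpha subunits for binding by the VHL ubiquitin ligase and for destruction, a control that acts on protein and is not measured in RNA tables. Without oxygen the pair binds DNA at hypoxia response elements, whose core reads ACGTG or GCGTG, and turns on genes of angiogenesis, glycolysis, pH control, mitophagy and feedback.

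Because the genes other than HIF1A and EPAS1 are known as targets of these factors, the promoters of those with the largest folds between the lines are shown. The sequences are the 250 bases before the RefSeq start of the gene (build GRCh38.p14), written 5′ to 3′ on the strand of the gene, and capitals mark the response element core on either strand.
ADM: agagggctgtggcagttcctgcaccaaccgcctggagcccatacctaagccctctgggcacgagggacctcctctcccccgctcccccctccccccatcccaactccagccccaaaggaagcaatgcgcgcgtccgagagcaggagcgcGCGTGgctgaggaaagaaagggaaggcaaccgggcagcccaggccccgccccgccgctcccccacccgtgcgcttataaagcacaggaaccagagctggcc
ANKRD37: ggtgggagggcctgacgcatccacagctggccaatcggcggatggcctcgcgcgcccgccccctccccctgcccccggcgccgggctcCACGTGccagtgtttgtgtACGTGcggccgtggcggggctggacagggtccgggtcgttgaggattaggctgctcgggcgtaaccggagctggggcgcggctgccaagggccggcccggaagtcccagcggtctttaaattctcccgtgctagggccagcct
CA9: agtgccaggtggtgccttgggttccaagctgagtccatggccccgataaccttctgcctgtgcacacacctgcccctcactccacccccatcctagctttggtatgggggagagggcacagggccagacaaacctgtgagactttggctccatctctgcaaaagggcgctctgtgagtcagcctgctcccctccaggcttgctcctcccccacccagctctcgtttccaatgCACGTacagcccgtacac
EGLN3: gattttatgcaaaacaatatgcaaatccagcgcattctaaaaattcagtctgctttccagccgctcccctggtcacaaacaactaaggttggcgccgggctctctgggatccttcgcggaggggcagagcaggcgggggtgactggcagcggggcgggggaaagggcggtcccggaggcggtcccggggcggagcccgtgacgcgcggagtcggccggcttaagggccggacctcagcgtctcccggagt
These lie at chr11:10304823-10305072 on the plus strand for ADM, chr4:185396591-185396840 on the plus strand for ANKRD37, chr9:35673678-35673927 on the plus strand for CA9 and chr14:33951075-33951324 on the minus strand for EGLN3. ADM held 1 GCGTG, beginning 101 bases before the start. ANKRD37 held 3 matches of ACGTG, of which those at 162 and 161 bases before the start are the same palindrome CACGTG read on both strands. CA9 held 1 match, 18 bases before the start, and EGLN3 held none of these letters in the window. RefSeq promoters were matched for 8 of the 10 genes, with 10 windows, and VEGFA and NDRG1 had no entry. At least 1 match was present in 7 of these 10 windows, each of a different gene, where 43.2% of all 35116 promoter windows had one. HIF1A and EPAS1, which encode the factors, were among the genes with a match. ACGTG itself was present in 4 of the 10 windows (1 each for ANKRD37, BNIP3, CA9 and PDK1), where 18.5% of all windows had it. The PDK1 window with a match, chr2:172555840-172556089, lay within the gene span, which starts at 172555373, and the window before that start had none. BNIP3 had the most matches, 6 between 143 and 104 bases before the start. Those at 134 and 133 bases are again the same palindrome CACGTG read on both strands. A match is a description of the letters and not a measured binding site.

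The input libraries held 29225501 to 35286514 expected counts, so that 3 counts corresponded to 0.0846 to 0.101 CPM (counts scaled to library size, here by the TMM method of edgeR). Replicates of a line differed beyond the sampling noise of counts (chi-square divided by its degrees of freedom, 83.1 for A549 and 53.6 for A549/DDP). A second pair of A549 inputs, labelled apart only by a full stop, held 855034 and 982036 counts, 75.2% and 73.9% of them mitochondrial, and entered only as an alternative. Of 7 epithelial and A549 markers, KRT8, KRT18 and CDH1 passed the test as higher in A549/DDP, and the summed level of the list was 2954 and 5243 CPM in A549 and 11143 and 10804 CPM in A549/DDP. EPCAM was low in all 4 inputs (1.91 to 5.67 CPM), and CDKN2A, which A549 is known to have lost, was at most 0.371 CPM. CDKN2B was at 0.0608 and 0.0282 CPM in A549 and at 4.15 and 0 CPM in A549/DDP replicates 1 and 2. KRT19 had 29.4 and 41.1 CPM in A549 and 7.19 and 0 CPM in A549/DDP, and was not called. Sums of the endothelial and blood cell markers were at most 0.451 and 0.978 CPM, with CD3E at 0 throughout, and fibroblast markers summed to 8.91 and 12.5 CPM in A549 and 27.2 and 10.0 CPM in A549/DDP. The part of these marker differences in the results was not tested, and in bulk RNA fewer cells with a transcript and less of it per cell cannot be told apart.

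Of the 10 genes, 4 fell and 1 rose in A549/DDP at an adjusted p under 0.05 (quasi-likelihood test of edgeR, adjusted by Benjamini-Hochberg over all genes tested). The genes that fell were ADM, NDRG1, HIF1A and VEGFA, and the gene that rose was EGLN3. Over all genes tested 14.9% were called, 8.00% as lower and 6.85% as higher. Counting by an unadjusted p under 0.05, 7 of the 10 genes passed, where 32.7% of all genes tested did. The median log2 fold change of the 10 genes was -0.67, with ANKRD37 at its fitted value or at its bound, where that of all genes tested was -0.00159. In 9 of the 10 genes, all but EPAS1, the CPM of both A549/DDP inputs lay on the same side of both A549 inputs, as they did for 62.4% of all genes tested. Across the alternatives the number of the 10 genes called ran from 1 with both pairs of A549 inputs to 7 in DESeq2. Over all genes tested, 677 of 16517 were called with both pairs and 4234 of 16406 in DESeq2.

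Among the alpha subunits, HIF1A fell and EPAS1 did not pass the test. HIF1A (ENSG00000100644.16) had 625 and 679 CPM in the A549 inputs and 311 and 346 CPM in the A549/DDP inputs. Both A549/DDP libraries were low and the lines did not overlap. The RNA fell by 0.99 on the log2 scale, 1.99-fold lower (standard error, SE, 0.15, edgeR adjusted p = 0.0128). With only 1 A549/DDP library the call was lost, with an edgeR adjusted p of 0.0858 without replicate 1 and 0.0538 without replicate 2. Over the alternatives with all replicates its adjusted p ran from 2.77e-09 to 0.216.

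EPAS1 (ENSG00000116016.13) had 1109 and 741 CPM in A549 and 765 and 827 CPM in A549/DDP. The A549 libraries were the highest and the lowest of the 4, so the lines overlapped. Its log2 fold change was -0.22 (SE 0.22, edgeR adjusted p = 0.575), within the replicate spread. The value rested on the A549 libraries, being 0.09 without replicate 1 and -0.49 without replicate 2, where the edgeR adjusted p was 0.000549. In limma on FPKM or TPM it was 0.06 to 0.12. Whether HIF1A and EPAS1 changed to a different extent was not tested.

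EGLN3 (ENSG00000129521.13), an oxygen-dependent prolyl hydroxylase that is itself a target of the factors and so part of their negative feedback, was the gene that rose. It had 3.95 and 2.79 CPM in A549 and 20.1 and 20.8 CPM in A549/DDP. Both resistant libraries were high, close to each other and apart from A549. The log2 fold change was 2.60 (SE 0.45, edgeR adjusted p = 0.0173), a 6.06-fold higher level. It passed in every alternative that used the first A549 pair alone, and its adjusted p was 0.171 with the second pair, where it had 1 and 0 counts, and 0.0517 with both.

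Of the secreted factors, ADM changed most. ADM (ENSG00000148926.9) encodes adrenomedullin, a vasodilating peptide that also acts on vessel growth. The A549 inputs had 450 and 294 CPM and the A549/DDP inputs had 46.1 and 26.1 CPM. Replicates of each line differed, yet the lower A549 library stood well above the higher A549/DDP library. The RNA fell by 3.37 on the log2 scale, 10.3-fold lower (SE 0.36, edgeR adjusted p = 0.00488), and it passed in all alternatives tried.

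VEGFA (ENSG00000112715.20), the main growth factor for blood vessels, had 125 and 154 CPM in A549 and 84.3 and 79.9 CPM in A549/DDP. Both resistant libraries were lower and the lines did not overlap. It fell by 0.76 on the log2 scale, 1.70-fold lower (SE 0.19, edgeR adjusted p = 0.0474), close to the threshold. The call was lost with upper-quartile scaling (edgeR adjusted p = 0.0594), in the 3 limma fits (adjusted p 0.159 to 0.174) and without A549/DDP replicate 1 or 2 (edgeR adjusted p 0.153 and 0.204), while its log2 fold change became 0.05 once the second A549 pair was used, in a fit where the median of all genes was 0.80, so that VEGFA lay 0.75 below that median. Over the alternatives with all replicates the adjusted p ran from 0.00505 to 0.924.

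CA9 (ENSG00000107159.12), a membrane carbonic anhydrase that helps cells export acid and is a widely used marker of hypoxic tumour tissue, was scarce in A549. It had 21 and 22 counts (0.638 and 0.621 CPM) there and 212 and 192 counts (7.15 and 5.50 CPM) in A549/DDP. Both resistant libraries were high, and the lines did not overlap. The log2 fold change was 3.32 (standard error 0.98), a ratio of 10.0, but its edgeR adjusted p was 0.0725 and it was not called. It passed in DESeq2 (adjusted p = 0.00283) and in edgeR with at least 10 counts required in every library (adjusted p = 0.00625), and over the alternatives with all replicates the adjusted p ran up to 0.245.

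PDK1 (ENSG00000152256.13) encodes pyruvate dehydrogenase kinase 1, which switches off pyruvate dehydrogenase and so keeps pyruvate out of the citric acid cycle. It had 14.8 and 17.0 CPM in A549 and 10.6 and 10.7 CPM in A549/DDP. The resistant libraries were the lower ones, yet the log2 fold change of -0.58 (SE 0.39, edgeR adjusted p = 0.368) was not called. The antisense gene PDK1-AS1 overlaps its span and had 90 counts in A549/DDP replicate 2 and none in the other 3 inputs.

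BNIP3 (ENSG00000176171.11), a mitochondrial receptor for mitophagy, had the smallest log2 fold change of the 10 genes. Its CPM was 48.9 and 48.2 in A549 and 55.4 and 56.5 in A549/DDP. Replicates were closer to each other than to the other line. The log2 fold change was 0.20 (SE 0.20, edgeR adjusted p = 0.566), and no alternative called it. PPP2R2D overlaps the span of BNIP3, and the BNIP3 pseudogenes held at most 14 counts each in any input.

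NDRG1 (ENSG00000104419.14), a stress-induced gene that is used as a marker of hypoxia and has been tied to growth arrest and differentiation, fell strongly. The A549 inputs had 208 and 247 CPM and the A549/DDP inputs had 46.1 and 39.2 CPM. All 4 libraries sorted by line. The fall was 2.41 on the log2 scale, 5.33-fold lower (SE 0.20, edgeR adjusted p = 0.00294), the smallest adjusted p of the 10 genes. With the first A549 pair alone it passed in every alternative, while its adjusted p was 0.0670 with the second pair and 0.0589 with both.

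ANKRD37 (ENSG00000186352.8), a small ankyrin-repeat gene known as a target of HIF-1, had 98 and 55 counts in A549 (2.98 and 1.55 CPM) and 0 counts in both A549/DDP inputs. Against a floor of 3 counts in a library, the mean of A549 was at least 22.4-fold higher than A549/DDP. It was nevertheless not called (edgeR adjusted p = 0.0641), and it passed in DESeq2 (adjusted p = 0.00254) as the single alternative to call it, with a range up to 0.176 over the alternatives with all replicates. UFSP2 overlaps 1187 bases of its span and had 237 and 389 counts in A549 and 483 and 430 counts in A549/DDP, and whether overlapping reads were shared out between the genes was not tested.

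**Figure D1:**
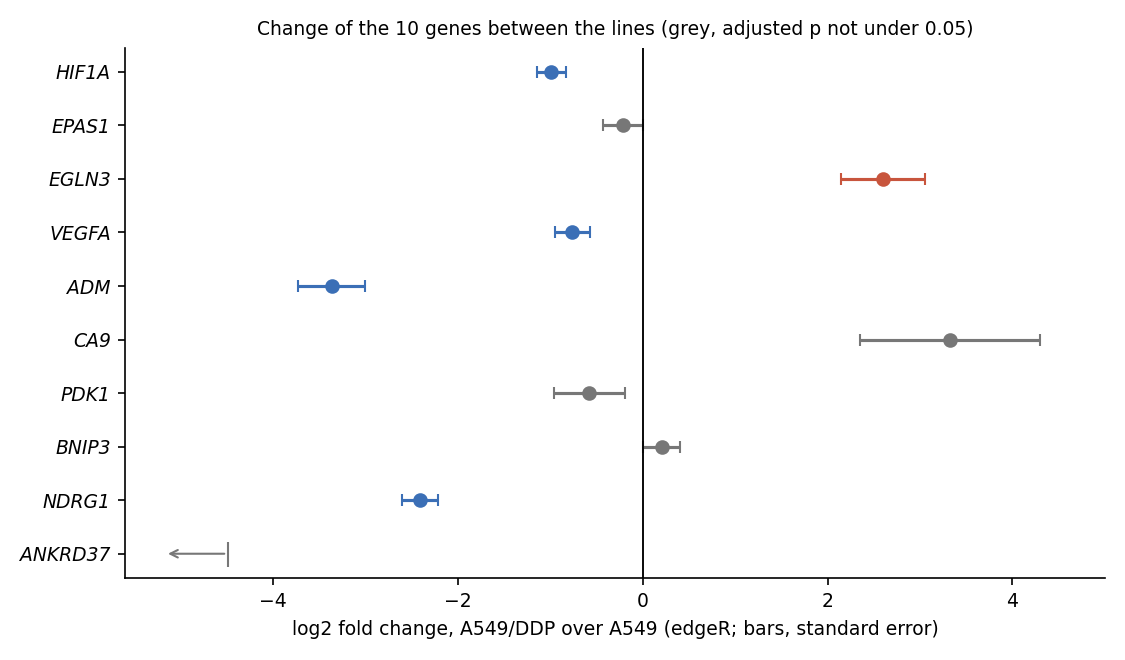
Log2 fold change of A549/DDP over A549 in edgeR's test, with points for the estimate and bars for its standard error, blue for genes called lower, red for the gene called higher and grey for the others. The arrow of ANKRD37 starts at its bound (22.4-fold), ADM and NDRG1 lie farthest to the left among the called genes, and CA9 has the largest rise and the widest error.

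Levels between genes were compared per length, as TPM. In A549 the order of mean TPM was HIF1A (752 ± 154, SD, n = 2), EPAS1 (659 ± 55.6), ADM (389 ± 68.2), NDRG1 (246 ± 75.9), VEGFA (112 ± 16.6), BNIP3 (60.1 ± 4.77), PDK1 (15.4 ± 2.84), ANKRD37 (4.67 ± 3.04), EGLN3 (2.97 ± 0.198) and CA9 (0.74 ± 0.0566). HIF1A overlapped EPAS1 and ANKRD37 overlapped EGLN3 in this order, while the libraries of the other neighbours did not overlap. In A549/DDP EPAS1 led (687 ± 27.1, SD, n = 2), followed by HIF1A (396 ± 43.2), BNIP3 (79.0 ± 1.63), VEGFA (68.5 ± 16.3), NDRG1 (51.9 ± 0.106), ADM (45.6 ± 11.4), EGLN3 (23.7 ± 5.98), PDK1 (11.9 ± 5.01), CA9 (7.28 ± 1.34) and ANKRD37 at 0. Here BNIP3 overlapped VEGFA and NDRG1 overlapped ADM. EGLN3 moved from the level percentile 25.5 of the tested genes in A549 to 60.9 in A549/DDP, and ADM from 97.4 to 75.6.

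The tables also give each gene a transcript length weighted by the estimated abundance of its isoforms, which moves when isoform estimates move. It was shorter in both A549/DDP inputs than in both A549 inputs for EPAS1, ADM and BNIP3, and longer for CA9, among the 9 genes with counts in all 4 inputs. Over all genes tested 15.0% were shorter and 15.5% longer in this sense. For ADM the lengths were 1598 and 1547 bases in A549 and 1442 and 1208 bases in A549/DDP. Those of EPAS1 were 2407 and 2099 bases in A549 and 1883 and 1946 bases in A549/DDP. The estimates of PDK1 in A549/DDP were 2057 and 1202 bases, so replicates of a line could lie farther apart than the lines.

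Other genes of the pathway were read from lists of the partners, the oxygen sensors, further targets, the receptors and the relatives of the 10 genes. Of the 73 genes listed 66 were tested and 11 passed, 6 higher and 5 lower, which is 16.7% beside the 14.9% of all genes. Over the alternatives this count ran from 4 with both A549 pairs to 24 without a filter on low counts. All genes called were 677 of 16517 tested in the former fit and 4010 of 22792 in the latter. Of the same 66 genes 21 passed with the replicate number as a block, beside 3536 of 16406 genes. In DESeq2 23 passed, beside 4234 of 16406, so the nearness to the share of all genes is that of the main fit.

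Among the HIF partners and coactivators 1 of 5 tested genes fell and none rose. It was CREBBP, the histone acetyltransferase CBP, at 301 ± 13.8 CPM (SD, n = 2) in A549 and 84.4 ± 12.7 CPM in A549/DDP (log2 fold change -1.83, edgeR adjusted p = 0.00431). HIF3A, a further alpha subunit, was not tested, with a mean of 0.0152 CPM in A549 and 0 in A549/DDP. None of the 8 genes of oxygen sensing and HIF turnover passed edgeR's test, and 3 had an unadjusted p under 0.05. EGLN1, the main prolyl hydroxylase, had 255 ± 33.3 CPM in A549 and 183 ± 0.605 CPM in A549/DDP (edgeR adjusted p = 0.112).

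Of the 30 other HIF target genes 8 passed, 4 in each direction. AK4, a mitochondrial adenylate kinase, rose from 7.86 ± 1.74 to 76.7 ± 1.53 CPM (SD, n = 2, log2 fold change 3.29, edgeR adjusted p = 0.00299). CA12, a membrane carbonic anhydrase like CA9, rose from 242 ± 156 to 1790 ± 72.6 CPM (log2 fold change 2.89, edgeR adjusted p = 0.0130). P4HA2, a collagen prolyl hydroxylase subunit, rose by 1.25 on the log2 scale. The glucose transporter SLC2A1 had 118 ± 29.8 and 126 ± 19.9 CPM and was not called.

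Of the family relatives of the 10 genes 4 of 15 passed, 3 higher and 1 lower. PDK4, a sister kinase of PDK1, rose from 21.4 ± 1.60 to 215 ± 13.9 CPM (SD, n = 2, log2 fold change 3.33, edgeR adjusted p = 0.00156). CA12, already given, and NDRG4 (log2 fold change 1.84, edgeR adjusted p = 0.0456) rose as well, and BNIP3L, the close relative of BNIP3, fell by 0.87 on the log2 scale (edgeR adjusted p = 0.0478). VEGFB had 10.9 ± 1.98 and 19.9 ± 3.53 CPM and was not called. Of the 9 receptor genes for VEGFA and ADM only 3 had enough counts to be tested, and in edgeR's test none passed, nor had any an unadjusted p under 0.05. FLT1, which encodes a receptor of VEGFA, was at 0 in A549 and 0.0675 CPM in A549/DDP. None of the 7 genes of the pyruvate dehydrogenase complex and its phosphatases passed edgeR's test, 1 had an unadjusted p under 0.05, and PDHA1 had 161 ± 23.4 and 215 ± 8.53 CPM.

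**Figure D2:**
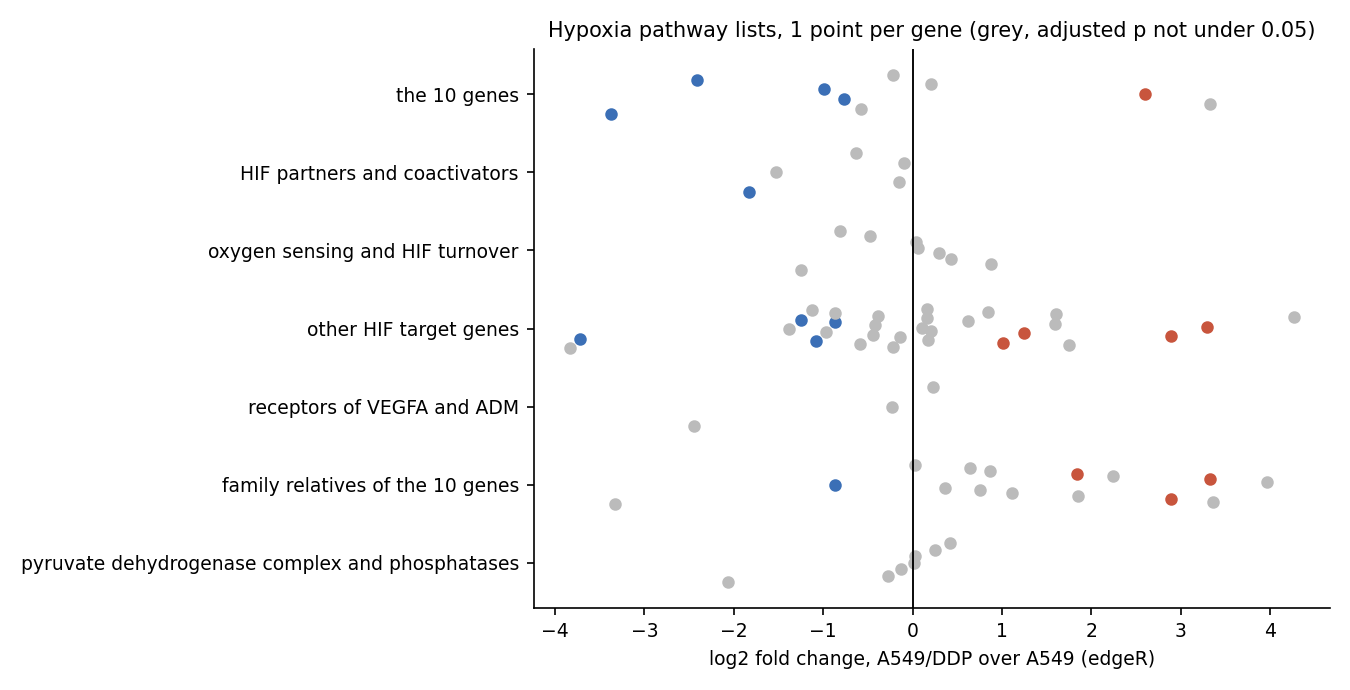
Log2 fold change of A549/DDP over A549 for the 10 genes (without ANKRD37, at 0 in A549/DDP) and for 6 lists of related genes, 1 point per gene, blue for genes called lower, red for genes called higher and grey for the others; CA12 and BNIP3L are in 2 lists. Called genes lie on both sides of 0 among the other HIF targets and the relatives, and no gene of oxygen sensing, the receptors or the pyruvate dehydrogenase list is called.

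Called peaks were deposited by library, each with a p-value and without read depth, and the 4 lists held 26320 and 14576 peaks in A549 replicates 1 and 2 and 27244 and 10661 peaks in A549/DDP. Named for the 10 genes were 13, 7, 14 and 10 of these. In at least 1 list 6 of the 10 genes had a peak, where 57.1% of the tested genes did. VEGFA and ADM had a peak in all 4 lists, where 13.9% did. Both shares are over tested genes of any level, and the latter was not worked out for abundant genes alone. The remaining 4 genes, EPAS1, CA9, PDK1 and ANKRD37, had none. EPAS1 was an abundant RNA without a peak, and of the tested genes with a mean of at least 100 CPM 14.7% had no peak in any list. Peaks of the 6 genes merged into 23 regions if their blocks had 1 base or more in common on a strand, 15 of them called in 1 library and 3 in all 4. The same counts over the regions of all genes are not given here.

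In VEGFA the lists held 6 and 4 peaks in A549 and 8 and 3 peaks in A549/DDP, merging into 7 regions. In all 4 libraries 2 regions were called, both on the plus strand of chromosome 6 (build hg38). The upstream one, chr6:43770434-43773181, covered 999 bases in its exon blocks and began 223 bases after the start of the gene. The downstream one, chr6:43784590-43785738, covered 1149 bases and ended 749 bases before the end of the gene. A region of 151 bases at chr6:43770234-43770384, the closest to the gene start, was called in A549 replicates 1 and 2 and in no A549/DDP library, and it was the only one of the 23 regions with that pattern. No region was called in both A549/DDP libraries and neither A549 library. How often regions of other genes have either pattern is not given here, so neither count is read as a trait of these genes. The p-values of the VEGFA peaks ran from 3.2e-08 to 0.0031.

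In ADM there were 3 and 2 peaks in A549 and 4 and 1 in A549/DDP, in 4 regions. The region chr11:10306360-10307051 on the plus strand, 692 bases long and ending 346 bases before the end of the gene, was called in all 4 libraries. It was thus called in both lines although the input RNA was 10.3-fold lower in A549/DDP. Near the gene start chr11:10305125-10305322 was called in both A549 libraries and A549/DDP replicate 1. Between them 2 short regions of 99 and 149 bases were called in A549/DDP replicate 1 alone. The p-values at ADM ran from 1.2e-09 in A549 replicate 1 to 0.012 in A549 replicate 2.

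The other 4 genes with peaks did not repeat between replicates of a line. HIF1A had 1 peak in A549 replicate 2 and 2 in A549/DDP replicate 2, and the region shared by these libraries, chr14:61740806-61744718 on the plus strand, held 397 bases in 2 exon blocks. BNIP3 had 4 peaks in A549 replicate 1 alone, each with a p-value of 0.0022. EGLN3 had 2 peaks in A549/DDP replicate 1 alone, at chr14:33925225-33925573 and chr14:33950663-33950812 on the minus strand, with p-values of 2.6e-06 and 6.9e-06. NDRG1 had 4 peaks in A549/DDP replicate 2 alone. Of these, 3 had their nearer edge 544 to 1292 bases from the gene end, each with a p-value of 4.3e-08. The remaining peak ended 19657 bases before the gene end and had a p-value of 0.00013. The lists give no depth at positions without a peak, so a missing call is not a measured absence of m6A, and no test of the peaks was made. The peaks of BNIP3 and EGLN3 were in the longer list of the line, and those of HIF1A and NDRG1 in the shorter list.

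The second pair of A549 inputs had too few counts to set levels for most of the genes. HIF1A had 51 and 61 counts there, ADM 51 and 66, EPAS1 32 and 20, NDRG1 6 and 16, BNIP3 12 and 7 and VEGFA 9 and 10. PDK1 and EGLN3 had at most 3 counts, and CA9 and ANKRD37 had 0 in both. With this pair in place of the first, ADM was called lower and EPAS1 was called higher (log2 fold change 1.87, edgeR adjusted p = 4.94e-05), while the median over all genes tested moved to 0.80, so that EPAS1 lay 1.07 above it and HIF1A 1.30 below it.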

How the data were processed

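RNA of A549 and A549/DDP cells was analysed from 4 input libraries and 4 m6A-seq peak lists, with 2 A549 inputs of a further pair as an alternative. Groups and replicate numbers follow the labels, also where those of the A549 m6A-seq lists are exchanged relative to the file names. The authors deposited expected counts per gene, which are estimates and not normalized, with TPM and FPKM scaled for transcript length and library size, and an abundance-weighted transcript length. The submitters' processing notes name STAR, RSEM, bedtools and the build hg38 without their roles. Libraries were strand-specific, and whether counting used the strand is not given in the sources used here. The deposited peak lists give exon blocks, gene and a p-value per peak, with no depth, and whether that p-value is adjusted is not said.

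After rounding, counts were filtered by filterByExpr and tested with TMM scaling in edgeR 4.0.16 (glmQLFit, glmQLFTest) under R 4.3.3, with Benjamini-Hochberg adjustment over 16406 genes and a threshold of 0.05. Standard errors are approximate, as the ratio of the log2 fold change to the root of F. The script was tested on simulated data with less spread between libraries than here, where edgeR's common coefficient of variation was 0.656. That run checked the code and not the error rate in these data. With 2 libraries against 2, an exact permutation test cannot go below p = 0.333, so none was used. Alternatives were DESeq2 1.42.0, limma 3.58.1 on log2(FPKM + 1), log2(TPM + 1) and log2(TPM + 0.1) of genes averaging at least 1, upper-quartile scaling, other filters, the replicate number as a block, the second A549 pair, both pairs and leaving out each replicate, where the lone library was assumed to vary like the others. Peaks were assigned by name and their positions are counted from 1. Distances use the gene spans of the GRCh38.p14 RefSeq table, and exons, introns and untranslated regions were not assigned here. Promoters were read from the RefSeq table as windows of 250 bases before the gene start. HIF1A and PDK1 each had a further window, which lay within the gene span.

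The 10 genes, the related lists and the tests were chosen with earlier results of these data known. All 10 genes are named, and of each related list the first gene and up to 4 called genes with the largest change, except that a gene of the related lists is not reported here. Plots were drawn with matplotlib 3.10.9.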

Additional observations from a re-analysis of the deposited data

How the results depend on the processing

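The fall of ADM passed in all alternatives, and the fall of NDRG1 and the rise of EGLN3 in all that used the first A549 pair alone. With the second A549 pair 9 of the 10 genes were tested and 2 were called, beside 3758 of all 13815 genes tested. Of those 3758 genes 63.1% were higher, against 46.1% in the main fit. The median log2 fold change of the 9 genes was -0.51, under a median of all genes of 0.80. There EPAS1 was 1.87, BNIP3 -0.51 and VEGFA 0.0502. With both pairs 1 of the 10 genes, 677 genes in all and 4 pathway genes were called, with EPAS1 at 0.39 and BNIP3 at -0.21. In limma EPAS1 was 0.12 on FPKM and 0.0624 and 0.0625 on TPM with a pseudocount of 1 and 0.1. The median of the 10 genes was -0.48 on FPKM, 1492 genes were called on TPM with a pseudocount of 1, and with 0.1 it was 1177 genes, 7 pathway genes and 3 of the 10 genes. DESeq2 called 4234 genes and 23 pathway genes. Without a filter these were 4010 and 24, and with at least 10 counts in every library 21 pathway genes were called. With the replicate block 5 of the 10 genes, 3536 genes and 21 pathway genes passed in edgeR. Same-numbered libraries did not deviate together (correlation 0.0227), so the numbers were not taken as pairs.

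Leaving out 1 replicate gave 3 to 6 of the 10 genes called, 2052 to 3809 genes in all, 10 to 20 pathway genes, a median of the 10 genes from -0.81 to -0.56, and EPAS1 from -0.49 to 0.0877. Without A549/DDP replicate 1 or 2 the call of 3 genes was left, and without A549 replicate 2 EPAS1 was called as well. With peaks kept up to a p-value of 1e-05, 0 of the 10 genes had a peak in both A549 libraries and 1 in both A549/DDP libraries, and 0 regions were called in both A549 libraries alone. Leaving out a list gave 2 to 3 genes with a peak in each remaining A549 list and 2 to 4 in A549/DDP, and 1 to 5 regions of A549 alone and 0 to 6 of A549/DDP alone. Promoters with ACGTG alone were 4. The cause of these shifts was not tested, apart from the loss of libraries. CA9, EGLN3 and ANKRD37 had the fewest counts in A549, under 150 in each input, and the depth behind the peaks is unknown.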
